A study of Mus musculus with 23 samples.

Results

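C-type lectin receptors are membrane proteins with a carbohydrate-binding fold, and 4 of them were described here, namely Clec5a, Clec7a, Clec1b and Cd209e. They were taken by gene name from a mouse myeloid panel of 754 genes, and each was followed in all 23 lungs. The panel was a NanoString nCounter assay, in which colour-coded probes are hybridised and counted with no amplification step, and it was run on total RNA of lavaged left lungs. Mice had received 14 instillations of organic dust extract (ODE) or of the PBS vehicle, called dust and saline here. Fat-1 mice carry a Caenorhabditis elegans desaturase gene whose enzyme makes omega-3 from omega-6 fats. The wild-type (WT) mice do not have it. By extract code there were 6 Fat-1 dust lungs (3 female, 3 male), 7 WT dust lungs (4 female, 3 male), 5 Fat-1 saline lungs (2 female, 3 male) and 5 WT saline lungs (2 female, 3 male). Age and strain background are not stated in the labels. The code also gives the extraction date: 5 dust and 6 saline lungs were of the later date, called day 2, and 8 dust and 4 saline lungs of the earlier, called day 1.

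Clec7a, also called dectin-1, binds fungal beta-glucan and signals through the kinase Syk and the adaptors Card9, Bcl10 and Malt1 to NF-kappa-B. Clec5a, also called MDL-1, is a receptor of monocytes, macrophages and neutrophils that has no signalling motif of its own and pairs with the adaptors Tyrobp (DAP12) and Hcst (DAP10). Clec1b, also called CLEC-2, is a platelet receptor for podoplanin and signals through Syk. Cd209e is a mouse relative of DC-SIGN. Organic dust of animal barns carries bacterial and fungal material, and the airway response to it draws neutrophils and macrophages into the lung.

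All 4 genes are protein-coding in RefSeq (GRCm38.p6), Cd209e on chromosome 8 and the others on chromosome 6. Clec1b and Clec7a lie in the same gene cluster, with 2 protein-coding genes between them, Clec9a and Clec1a. The 250 bases before the annotated start of 3 of the genes are shown, because Clec5a and Clec7a were both higher in dust lungs while Clec1b, close to Clec7a on the chromosome, was not called. They are chr6:40585806-40586055 (minus strand) for Clec5a, chr6:129472786-129473035 (minus strand) for Clec7a and chr6:129397047-129397296 (plus strand) for Clec1b, each written along its gene, with capitals for a GAGGAA on either strand.
Clec5a: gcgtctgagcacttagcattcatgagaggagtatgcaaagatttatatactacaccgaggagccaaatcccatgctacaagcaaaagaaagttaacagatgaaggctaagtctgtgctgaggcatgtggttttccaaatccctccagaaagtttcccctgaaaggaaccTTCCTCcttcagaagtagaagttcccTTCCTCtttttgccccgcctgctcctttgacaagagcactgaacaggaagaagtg
Clec7a: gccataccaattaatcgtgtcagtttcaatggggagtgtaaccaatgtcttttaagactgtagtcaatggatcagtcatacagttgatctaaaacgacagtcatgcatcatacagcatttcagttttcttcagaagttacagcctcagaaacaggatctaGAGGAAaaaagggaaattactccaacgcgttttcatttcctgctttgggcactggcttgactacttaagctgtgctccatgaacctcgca
Clec1b: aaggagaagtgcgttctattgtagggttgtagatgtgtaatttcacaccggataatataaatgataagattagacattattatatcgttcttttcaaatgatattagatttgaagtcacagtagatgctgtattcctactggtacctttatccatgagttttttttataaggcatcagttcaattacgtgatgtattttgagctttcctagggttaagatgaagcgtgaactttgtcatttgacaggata

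GAGGAA is 1 form of the site bound by PU.1, a transcription factor of myeloid cells. The Clec5a window held it 2 times, on the opposite strand (bases 81 to 76 and 55 to 50 before the start), the Clec7a window held it 1 time (bases 90 to 85), and the Clec1b window did not hold it. Of 32851 mouse promoter windows of the same length, 23.3% held it. In all, 5 motifs were searched on both strands. The letters AGATAA, 1 form of the site of GATA factors, were in 9.99% of windows, and TGANTCA, of AP-1, in 6.75%, and neither was in these 3 windows. Other forms of the GATA site were not searched, so that absence covers these letters only. The Cd209e window, searched but not shown, held AGATAA 1 time (bases 34 to 29 before the start) and none of the other motifs. For NF-kappa-B a longer form, with GGG at its start, 2 free bases and TTTCC at its end, was in 1.41% and a shorter form, GGANTTTCC, added after the other motifs had been searched, was in 1.07%. Neither form was in any of the 3 windows. No motif overlapped another here, and a match describes letters only.

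Values are normalized counts, that is probe counts times 1 factor per lung, with a floor of 20 below which no level can be read. Each lung gave between 110453 and 812429 counts above the floor, with 66 to 232 genes per lung at the floor. The title, characteristics and extract code of 4 lungs gave different groups: for 3 of them the code says Fat-1 where the other labels say WT, 1 of which is also male by code and female by the other labels, and the remaining lung is WT female dust by its title but WT male saline by code and characteristics. The lungs Fat-1 male dust 1 of day 2 and WT male saline 1 of day 2 had a binding density of 3.05 and 3.12 and a saturation message. Their positive controls were the lowest, with geometric means of 215 and 187 counts. Fat-1 female dust 2 of day 1 was next at 293 and WT female saline 1 of day 2 highest at 1904, outside the 349.7 to 836 of the other 19 lungs, and these 2 are called the pair in doubt here. Of 8 genes listed to check the tissue label the panel held Cav1 and Cdh5, and both were measured in every lung. Both are found in endothelium, which other tissues also hold, so they cannot check that the tissue is lung. Clec7a was above the floor in 23 lungs, Clec1b in 22, Clec5a in 21 and Cd209e in 3.

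Dust against saline was compared first, over both genotypes and sexes. Clec5a and Clec7a were higher in dust, and every dust lung was above every saline lung for both. Clec5a averaged 686 ± 447 normalized counts in dust lungs (SD, n = 13) and 76.0 ± 34.8 in saline lungs (n = 10), so that the log2 fold change was 3.03 (SE 0.47, adjusted p = 7.19e-05, limma with Benjamini-Hochberg adjustment over 711 genes). Clec7a averaged 2122 ± 1300 in dust lungs and 472 ± 110 in saline lungs, a log2 fold change of 1.97 (SE 0.29, limma adjusted p = 5.53e-05). Ordered by log2 fold change, Clec5a was at place 7 and Clec7a at place 41 of the 711 genes tested. Clec1b and Cd209e were not called, at 0.18 (SE 0.17, adjusted p = 0.401) and 0.10 (SE 0.16, adjusted p = 0.626). In this comparison 53.3% of genes were called, 43.3% of genes as higher in dust, and the median log2 fold change of all genes was 0.26. Non-overlap with dust on top was rarer, at 3.52% of genes. In bulk tissue more cells of a type and more RNA per cell cannot be told apart.

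The lungs show how far apart the groups were. In Fat-1 dust lungs Clec5a ran from 193 to 1527 with a median of 560, and in WT dust lungs from 126 to 1143 with a median of 958. In Fat-1 saline lungs it was 20 (at the floor), 90.6, 104, 109 and 122, and in WT saline lungs 20 (at the floor), 59.0, 71.3, 81.7 and 82.5. The lowest dust lung, at 126, was thus only just above the highest saline lung, while the highest was at 1527. The lungs at the floor, Fat-1 male saline 1 and WT female saline 1 of day 1, had the 2 largest scale factors, so that their Clec5a could have been as high as 84.3 and 64.8. With these and all other floor values raised to the highest level they could have had, the Clec5a log2 fold change was 2.66. A common floor, for which every value under 84.3 in any lung was raised to 84.3, gave 2.54.

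Clec7a was far from the floor in every lung. It ran from 1115 to 5640 with a median of 1556 in Fat-1 dust lungs, and from 683 to 3628 with a median of 2203 in WT dust lungs. In Fat-1 saline lungs it was 360, 421, 469, 553 and 555, and in WT saline lungs 313, 365, 447, 615 and 625. Saline lungs spanned a factor of 1.99 and dust lungs a factor of 8.25, with the lung at 5640, Fat-1 female dust 2 of day 1, well above the next Fat-1 dust lung at 1775.

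**Figure D1:**
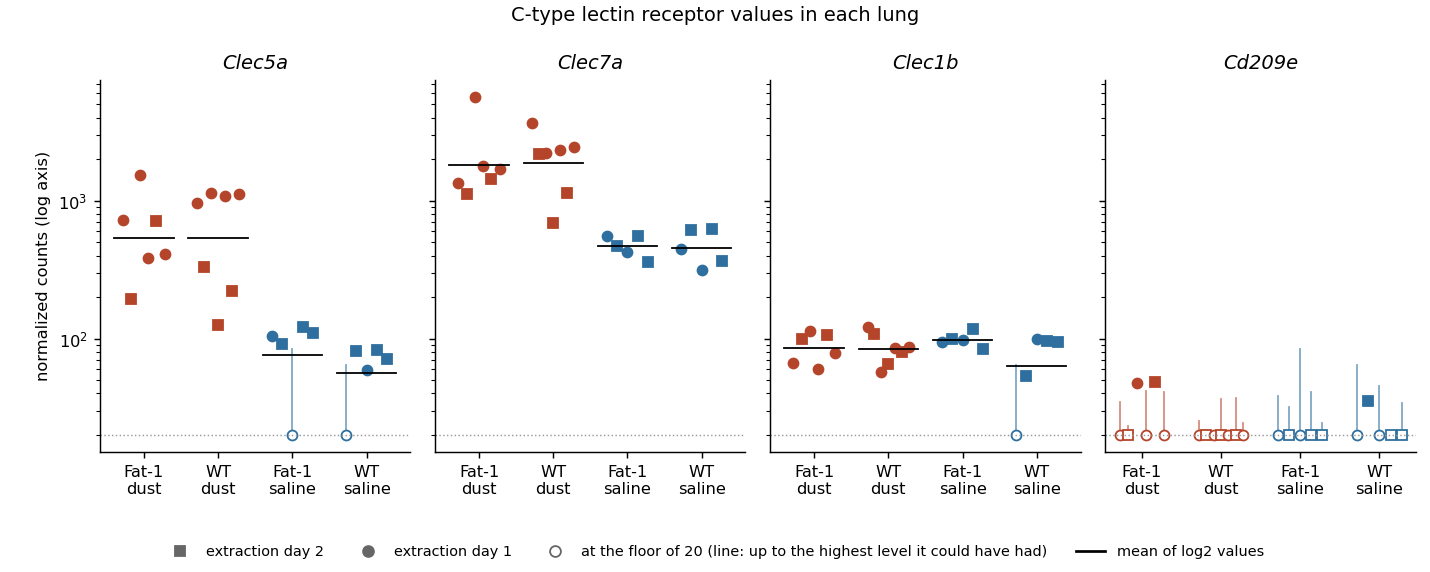
Normalized counts of the 4 genes in each lung on a log axis, by genotype and exposure, with squares for day 2 and circles for day 1. Bars are means of log2 values (not drawn for Cd209e), open symbols are values at the floor of 20, and their lines reach the highest level the lung could have had. Clec5a and Clec7a separate all 13 dust lungs from all 10 saline lungs, and Clec1b and Cd209e do not.

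Clec1b was low in every lung. It ran from 60 to 113 with a median of 89.2 in Fat-1 dust lungs and from 57.3 to 122 with a median of 85.0 in WT dust lungs. In Fat-1 saline lungs it was 83.8, 94.4, 96.9, 98.6 and 118, and in WT saline lungs 20 (at the floor), 53.3, 95.1, 96.2 and 99.9. The groups overlapped throughout. These levels rest on 23 to 141 counts where above the floor, against 7 to 28 for the highest negative control probe of a lung, and at 20 counts counting error alone is 22.4%. The 95% interval of the dust effect, -0.18 to 0.55 on the log2 scale, leaves room for a modest change in either direction.

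Cd209e was at the floor in 20 of 23 lungs. It was above the floor in Fat-1 female dust 2 of day 1 (47.3, 20 counts), in Fat-1 male dust 1 of day 2 (48.4, 49 counts) and in WT female saline 1 of day 2 (35.5, 40 counts). All 3 are among the 4 lungs whose positive controls lay outside the range of the other 19, and their highest negative control probes had 17, 28 and 27 counts. A change of Cd209e was therefore not detectable at this depth, and its fitted values rest on these 3 lungs and the floor.

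Within each genotype the same pair of genes was called. In Fat-1 lungs dust against saline was 2.74 for Clec5a (SE 0.68, limma adjusted p = 0.00683) and 1.94 for Clec7a (SE 0.42, adjusted p = 0.00337), where 38.1% of genes were called. By title, or without the 4 lungs of differing labels, these missed the threshold (Clec5a 3.06, adjusted p = 0.052 and 0.0526, and Clec7a 1.90, adjusted p = 0.0606 and 0.0556). In WT lungs it was 3.32 for Clec5a (SE 0.66, adjusted p = 0.00168) and 1.99 for Clec7a (SE 0.41, adjusted p = 0.00191), where 35.3% were called. Clec1b was at -0.19 in Fat-1 (adjusted p = 0.558) and 0.56 in WT (adjusted p = 0.0773). The WT value was 0.22 without WT female saline 1 of day 1 and 0.91 without WT female saline 1 of day 2. It passed in 2 of 23 fits that left out 1 lung. With a common floor it was 0.02, but that floor, 84.3, lies within the range of Clec1b values and by itself narrows their differences.

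Whether the genotypes differed was tested directly. The dust response in Fat-1 minus that in WT was -0.58 for Clec5a (95% interval -2.56 to 1.40) and -0.05 for Clec7a (-1.29 to 1.19), and 0% of the 711 genes passed in limma, with 21 at an unadjusted p under 0.05. Clec1b was at -0.76 in this test (-1.48 to -0.03, limma unadjusted p = 0.0413, adjusted p = 0.999). Without WT female saline 1 of day 1 that Clec1b value was -0.42. Among dust lungs Fat-1 against WT was -0.02 for Clec5a (-1.32 to 1.28) and -0.03 for Clec7a (-0.84 to 0.78), again with 0% called by limma and 22 genes at an unadjusted p under 0.05. Among saline lungs it was 0.56 for Clec5a (-0.94 to 2.06) and 0.02 for Clec7a (-0.92 to 0.95), with 0% called and 10 genes at an unadjusted p under 0.05. The intervals for Clec5a are wide, so that these data show neither a difference between the genotypes nor its absence. With limma array weights 97 genes were called for Fat-1 against WT in dust lungs, among them Clec7a at -0.73 (adjusted p = 0.0365).

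Clec1b had the smallest unadjusted p of the 4 genes between the genotypes in saline lungs. It averaged 98.3 ± 12.4 in Fat-1 saline lungs and 72.9 ± 35.2 in WT saline lungs (SD, n = 5 each), a log2 difference of 0.78 (limma, adjusted p = 1, and 0.0081 before adjustment). The WT value holds the lung at the floor, WT female saline 1 of day 1, which could have been as high as 64.8, and without it the difference was 0.43. Without WT female saline 1 of day 2 it was 1.12, and without the pair in doubt it was also 1.12 (limma adjusted p = 0.0292). With a common floor it was 0.11, where raising all values under 84.3 by itself narrows any Clec1b difference. The dust response of Clec1b in males minus that in females was -0.88 (unadjusted p = 0.0203, limma adjusted p = 0.998), and both female saline groups are of 2 lungs. It was -0.53 without WT female saline 1 of day 1 and -0.27 with a common floor. For that comparison limma called 0% of genes, with 14 at an unadjusted p under 0.05, and Clec5a and Clec7a were at -0.02 and 0.12.

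**Figure D2:**
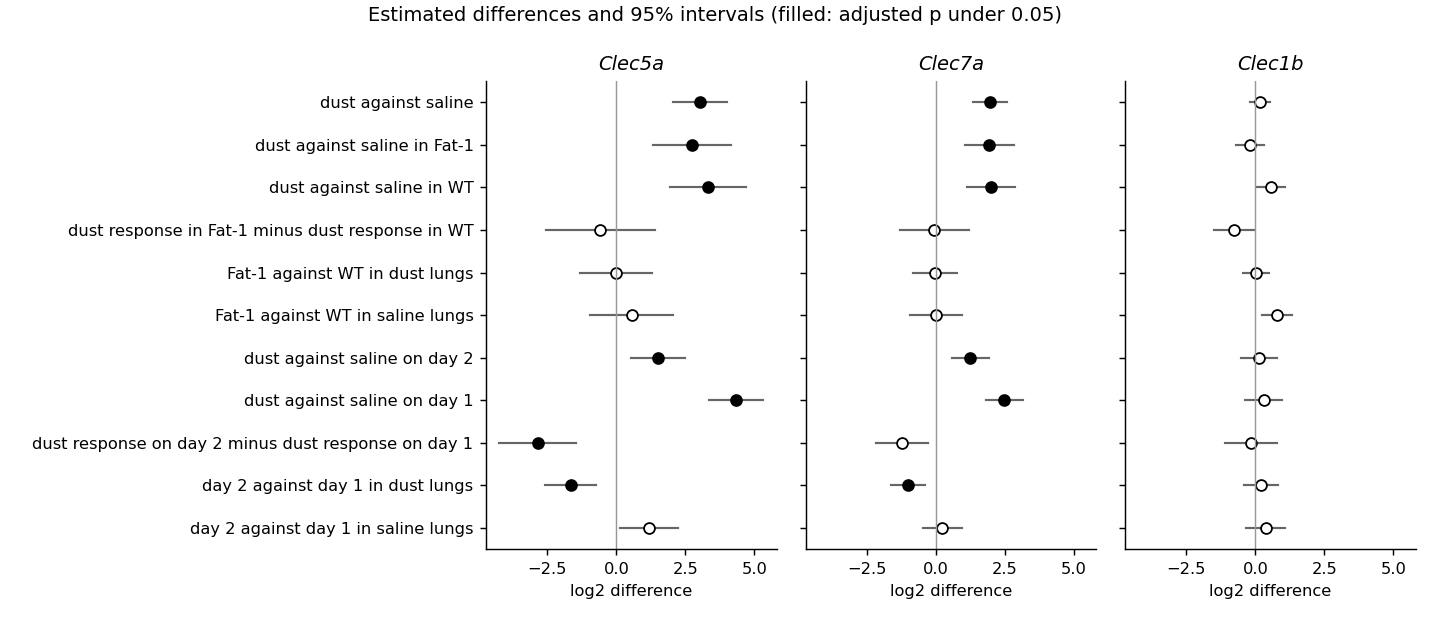
Log2 differences of Clec5a, Clec7a and Clec1b with 95% intervals in 11 comparisons, filled where the adjusted p is under 0.05. The dust effects of Clec5a and Clec7a lie right of 0 and the genotype comparisons straddle 0, except Clec1b in saline lungs and in the difference of responses, whose intervals exclude 0 before adjustment.

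The dust effect was also taken within each extraction day, since dust and saline lungs were unevenly spread over the days. On day 2 dust against saline was 1.51 for Clec5a (SE 0.47, adjusted p = 0.0412) and 1.25 for Clec7a (SE 0.32, adjusted p = 0.0148), where 13.2% were called. On day 1 it was 4.35 for Clec5a (SE 0.47, limma adjusted p = 8.81e-07) and 2.48 for Clec7a (SE 0.32, adjusted p = 3.54e-06), where 53.2% of genes were called. With floor values at their highest possible level the day 1 value of Clec5a was 3.43, and with a common floor 3.21. Clec1b was at 0.13 on day 2 (adjusted p = 0.872) and 0.30 on day 1 (adjusted p = 0.46). Without Fat-1 male dust 1 of day 2, a lung with a saturation message, Clec5a on day 2 was 1.01 (adjusted p = 0.299), and Clec7a then had an adjusted p of 0.108. Leaving out 1 lung at a time, the day 2 effect passed the threshold in 13 of 23 fits for Clec5a and 21 of 23 for Clec7a, and it passed in 8 and 13 of 16 other alternatives.

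The smaller Clec5a effect of day 2 came with lower values in dust lungs. On day 2 Clec5a was 126, 193, 220, 331 and 713 in dust lungs, against 71.3 to 122 with a median of 86.6 in 6 saline lungs. On day 1 it ran from 383 to 1527 with a median of 1018 in 8 dust lungs, against 20 and 20 (both at the floor), 59.0 and 104 in saline lungs. Of the day 2 dust lungs 1 of 5 was within the range of day 1 dust lungs. The response on day 2 minus that on day 1 was -2.84 for Clec5a (SE 0.67, limma adjusted p = 0.0348), where 1.69% of genes were called, and -1.24 for Clec7a (SE 0.45, adjusted p = 0.128). Both floor values are day 1 saline values. With floor values at their highest possible level the Clec5a difference was -1.91 (adjusted p = 0.146), and with a common floor -1.75 (adjusted p = 0.197).

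Among dust lungs alone, which no Clec5a or Clec7a floor value touches directly, both genes were lower on day 2. Day 2 against day 1 was -1.65 for Clec5a (SE 0.44, limma adjusted p = 0.0215) and -1.0 for Clec7a (SE 0.30, adjusted p = 0.0315), where 15.2% of genes were called. Clec7a averaged 1306 ± 553 in day 2 dust lungs (SD, n = 5) and 2632 ± 1396 in day 1 dust lungs (n = 8). Without the pair in doubt these were -1.53 (adjusted p = 0.0527) and -0.81 (adjusted p = 0.0602). Leaving out 1 lung at a time, Clec5a passed in 20 of 23 fits (adjusted p up to 0.0824) and Clec7a in 15 of 23 (up to 0.108). Among saline lungs day 2 against day 1 was 1.19 for Clec5a (adjusted p = 0.603) and 0.24 for Clec7a (adjusted p = 1), with 0.141% of genes called. Hybridisation cartridge was inferred from the run file names in the file header. It nearly followed the day, apart from 2 lungs of either day. With cartridge as a block, 180 genes were called for day 2 against day 1 in dust lungs, against 108 without it. Clec5a and Clec7a each passed there in 15 of 16 alternatives, of which this block was 1. The part of the cartridge in the day differences was not tested further.

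Clec5a and Clec7a varied together among dust lungs. Over 13 dust lungs Pearson's r of their log2 values was 0.82 and Spearman's rho 0.84 (permutation p = 0.00041 and 0.00056, two-sided, 0.00246 and 0.00336 after adjustment over 6 relations). Without the 2 lungs farthest from the median of Clec5a r was 0.69. Within the 8 dust lungs of day 1 r was 0.69 (permutation p = 0.0532). No correlation was computed over the 5 dust lungs of day 2, where Clec7a was 683, 1115, 1131, 2174 and 1425 in order of rising Clec5a. Over 10 saline lungs r was 0.27 (permutation p = 0.453). None of the 4 relations of Clec1b with Clec5a or Clec7a passed, with r from -0.06 to 0.57.

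**Figure D3:**
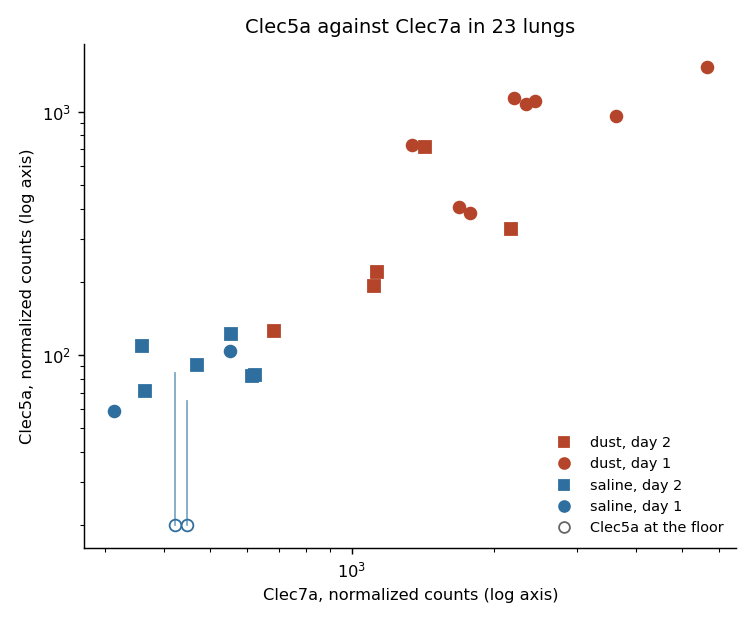
Clec5a against Clec7a in 23 lungs, both in normalized counts on log axes, coloured by exposure and shaped by extraction day. Dust lungs spread along a rising band (r 0.82 over 13 lungs), and saline lungs form a cluster at the lower left, 2 of them with Clec5a at the floor.

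The genes whose pattern was most like that of each receptor were found by Pearson's r of log2 values among the genes above the floor in at least 12 lungs, as a description over lungs that share scale factors and exposure. Over the 13 dust lungs, Clec5a was most like Vav1 (0.97), Itgam (0.97), Adam8 (0.97) and Csf3r (0.96), of which Itgam is an integrin of myeloid cells and Csf3r the receptor for the neutrophil growth factor G-CSF. Clec7a was most like Serinc2 (0.94), Ctss (0.92), Trem2 (0.92) and Olr1 (0.91), of which Ctss is a lysosomal protease and Trem2 a lipid receptor of macrophages. Over all 23 lungs Clec5a was most like Lif (0.96), Tmem173, Amica1 and Il1rn (each 0.94), and Clec7a most like Ctss (0.98), C1qc (0.97), Olr1 (0.96) and Adgre1 (0.96). Clec1b had looser likenesses, at most 0.72 with Lrp6 over all lungs and 0.80 with Tlr7 over dust lungs. The 4 genes most like Clec5a and the 4 most like Clec7a had no gene in common, over dust lungs or over all lungs.

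Genes around the receptors were taken from lists. Of the adaptors and signalling proteins, 12 of 14 tested were higher in dust and none lower, with a median log2 fold change of 1.00 against 0.26 over all genes, of which 43.3% were higher and 9.99% lower. Malt1 was at 1.93, the exchange factor Vav1 at 2.11 and the transcription factor Irf5 at 1.21. The Clec5a adaptor Tyrobp was at 1.39, Pik3cg at 1.04 and the kinase Syk at 1.47. Tyrobp averaged 3576 ± 1374 in dust lungs and 1280 ± 295 in saline lungs, and Syk 958 ± 631 in dust lungs and 305 ± 39.3 in saline lungs. Nfatc1 (0.19) was not called.

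Of the cytokines, chemokines and enzymes that Clec7a or Clec5a can induce in myeloid cells, 14 of 17 tested were higher in dust and none lower, with a median of 1.67, beside the 43.3% of all genes that were higher. The neutrophil chemokines Cxcl3 (4.11) and Cxcl2 (2.68), the macrophage chemokine Ccl3 (3.14), Il1a (2.31), Tnf (2.28) and Il1b (2.95) were among them. Csf3, Ptgs2 and Il23a were not called, and Il10 and Il12a were at the floor in all lungs. Many other receptors induce the same genes.

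**Figure D4:**
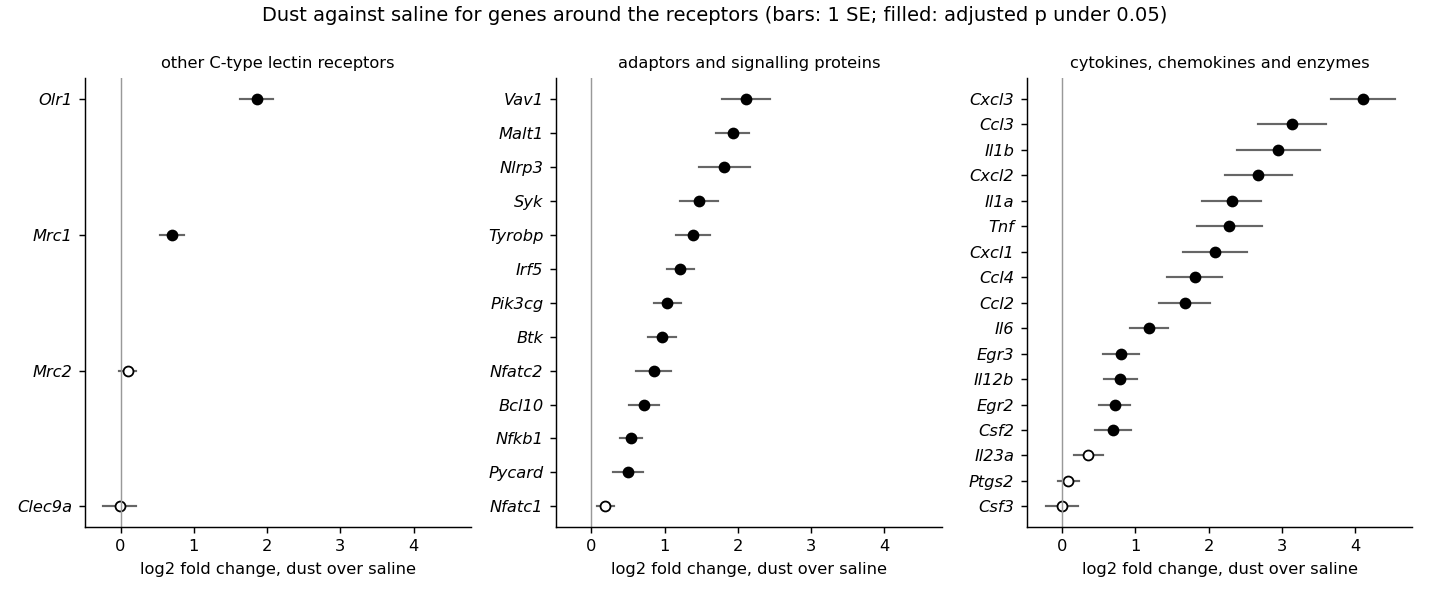
Log2 fold change of dust over saline, with bars of 1 SE, for other C-type lectin receptors, adaptors and signalling proteins, and cytokines, chemokines and enzymes, filled where the adjusted p is under 0.05. All called genes lie right of 0, with Cxcl3 highest at 4.11.

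The panel held 4 other C-type lectin receptors. Olr1, a scavenger receptor for oxidised lipoprotein, averaged 854 ± 350 in dust lungs and 220 ± 50.3 in saline lungs (log2 fold change 1.86, limma adjusted p = 1.29e-05). Mrc1, the mannose receptor of macrophages, averaged 882 ± 231 in dust lungs and 529 ± 139 in saline lungs (0.70, adjusted p = 0.00185). Mrc2 (0.10) and Clec9a (-0.01), a receptor of dendritic cells for dead cells, were not called. Along the cluster on chromosome 6, Clec1b and its neighbour Clec9a were thus not called while Clec7a was higher.

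For platelets the panel held 3 of 17 listed markers, Clec1b among them, with a summed level of 283 to 1099 in dust lungs and 219 to 341 in saline lungs. Pf4, a platelet chemokine that macrophages can also make, averaged 371 ± 187 in dust lungs and 134 ± 35 in saline lungs (log2 fold change 1.36, limma adjusted p = 0.000213). Selp, the P-selectin of platelets and endothelium, averaged 125 ± 75.1 in dust lungs and 55.6 ± 19.9 in saline lungs (1.00, adjusted p = 0.0102). Clec1b did not pass beside them. In the Clec1b pathway Tgfb1 was higher (0.74), S1pr1, a receptor of endothelium and lymphocytes, was lower (-0.52), and the adaptor Lat was not called (0.72, adjusted p = 0.0608).

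Markers of several cell types moved with dust, where 43.3% of all genes were higher and 9.99% lower. Of the neutrophil markers 13 of 17 tested were higher and none lower, Elane was at the floor in all lungs, and their summed level ran from 3226 to 47700 in dust lungs and from 2810 to 4924 in saline lungs. Of the monocyte and interstitial macrophage markers 12 of 15 were higher and none lower (sums of 10170 to 28830 in dust lungs and 8846 to 11970 in saline lungs). Ly6c1, which was not called, averaged 6082 in dust lungs and 5865 in saline lungs and was a large part of these sums. Among the alveolar macrophage markers 9 of 11 were higher and none lower (sums of 21670 to 64180 in dust lungs and 12900 to 28490 in saline lungs). Of the dendritic cell markers 10 of 13 were higher and Dpp4 was lower (-0.70). All 5 endothelial markers were lower (sums of 2645 to 10080 in dust lungs and 9463 to 12710 in saline lungs). Of the T, B and NK cell markers Icos (1.76) and Cd28 (0.59) were higher and Gzma (-0.82) lower of 6, and of the epithelial markers Lamp3 was called at 0.29, close to the median of all genes, and Cdh1 was not called. The part of these cells in the values of Clec5a and Clec7a was not tested.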

How the data were processed

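Values were deposited as a signal, namely normalized probe counts. Per the file headers, and as the spacing of values shows, counts of a lung were multiplied by 1 factor (0.682 to 4.21). Where the count was under 20 the deposited value is exactly 20, unscaled, in every lung. Where the factor was under 1, no scaled value lay under 20 either. In WT male saline 1 of day 2 (factor 0.682) the lowest value above the floor was 20.46. How the factor was made is not given in the sources used. Lungs were grouped by extract code, made per the labels' protocols of extraction date, genotype, sex, exposure and replicate. No within-group pair of lungs agreed within sampling noise (lowest chi-square per degree of freedom 4.14). Each left lung is a separate mouse.

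The log2(value + 1) values were fitted in limma 3.58.1 (R 4.3.3), in a model of 8 groups over all 23 lungs, and for the days in a model of exposure and day with genotype and sex as additive terms. Tests were two-sided, with Benjamini-Hochberg adjustment over the 711 of 754 genes above the floor in at least 1 lung and a threshold of 0.05. The floor hides low counts, so no count model was fitted. The fit was tested on simulated data with normal errors. These held no floor, no scale factors and no day effects, so the test does not cover them. Permutation tests used 100000 random orders for every set of lungs (scipy 1.17.1, Python 3.11.15).

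The receptors, lists, tests and alternatives were chosen with earlier results of these data known. Named genes are the 4 receptors, the 4 genes most like each by Pearson's r among those above the floor in at least 12 lungs, and up to 6 called genes per list with the smallest adjusted p, plus those against their list. List genes that were not called, and all called genes of lists with fewer, were chosen once their values had been seen. A gene of the adaptor list is counted but not reported here by name or value. Promoter sequences are RefSeq's (GRCm38.p6); symbols matched for all 4 genes and panel accessions for 3 of them. The shorter NF-kappa-B motif was added after the other motifs had been searched. Alternatives changed the pseudocount, filter, scaling, floor, grouping, blocks, weights and lungs; the scaled floor of each lung, the cartridge block and leaving out the 2 lungs of high binding density were added after seeing the data.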

Additional observations from a re-analysis of the deposited data

Results flagged for a closer look

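Of 32 sets of 4 to 10 lungs examined for a lung far from the others by Dixon's criterion, 8 had one. Chance gives about 1 in 20 of sets whose values vary freely, which does not hold for the 4 Cd209e sets among the 8, whose other lungs are tied at 20. Clec5a was at the floor of 20 in Fat-1 male saline 1 of day 1, against 90.6 to 122 in the other Fat-1 saline lungs, and at 20 in WT female saline 1 of day 1, against 59.0 to 82.5 in the other WT saline lungs. Clec1b was also at 20 in WT female saline 1 of day 1, against 94.4 to 99.9 in the other day 1 saline lungs. These lungs had the 2 largest scale factors. Clec7a was 5640 in Fat-1 female dust 2 of day 1, while the rest of the Fat-1 dust lungs were between 1115 and 1775. Cd209e was above the floor in 1 lung of each of 4 sets whose other lungs were at 20, with 35.51 in WT female saline 1 of day 2 (in 2 sets), 48.43 in Fat-1 male dust 1 of day 2 and 47.28 in Fat-1 female dust 2 of day 1. The Clec5a response to dust differed between extraction days by a direct test, at -2.84 on the log2 scale (limma adjusted p = 0.0348). It missed the threshold with floor values at their highest possible level (-1.91, adjusted p = 0.146) and with a common floor (-1.75, adjusted p = 0.197), and passed in 8 of 23 fits that left out 1 lung. Both Clec5a values at the floor are among the 4 saline lungs of day 1.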

How the results depend on the processing

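Clec5a and Clec7a stayed higher in dust and past the threshold under all 19 alternatives (log2 fold change 1.70 to 4.35 and 1.30 to 2.48, lowest with only day 2 and highest with only day 1) and without any 1 of 23 lungs. Over all receptors, comparisons and alternatives, 1826 values kept their call, 59 missed the threshold, 9 newly passed and 2 passed with the opposite sign. Of those that kept their call, 130 changed sign while past the threshold in neither setting, such as Clec1b in dust against saline, at 0.18 and, with median centring, -0.21. The cause of a change was not tested. Genes called for dust against saline were 110 with only day 2 against 379 in all, and the split of 308 higher and 71 lower became 255 and 115 with housekeeping scaling and 202 and 244 with median centring, where the median of all genes moved to 0.12 and -0.13 from 0.26. Without the lungs of differing labels or by title, Fat-1 dust against saline was 3.06 for Clec5a and 1.90 for Clec7a, past the threshold in neither, with 69 and 75 genes called against 271 (167 by characteristics), and 139 and 155 against 251 in WT. Array weights gave -0.46 (adjusted p = 0.0352) for Clec1b in Fat-1, 0.72 (0.0175) in WT, -0.73 (0.0365) for Clec7a between genotypes in dust lungs, and 388 genes called in WT. Without the pair in doubt Clec1b was 0.91 (adjusted p = 0.00581) in WT and 1.12 (0.0292) between genotypes in saline lungs, where 15 genes were called against 0. Leaving out 1 lung, Clec1b in WT ran from 0.22 to 0.91. Cd209e was -0.59 (adjusted p = 0.0377) in WT with median centring, and turned to -0.86 on day 1 and -0.88 for day 2 against day 1 in saline lungs with each lung's own scaled floor, where its values are bounds. On day 2 Clec5a missed the threshold with no filter (1.51), housekeeping scaling (1.40), median centring (1.25), groups by title (1.14), without the lungs of differing labels (1.52), the pair in doubt (1.48) or the lungs of high binding density (0.99) and with the replicate block (1.50), and Clec7a by title (0.96), without the lungs of differing labels (1.09) or of high binding density (1.19). Genes called on day 2 were then 0 by title, 24 without differing labels and 9 without high binding density, against 94. Leaving out 1 lung gave 1.01 to 1.75 for Clec5a and 1.08 to 1.47 for Clec7a, past the threshold in 13 and 21 of 23. The day difference of Clec5a missed the threshold with no filter (-2.84), a common floor (-1.75), each lung's own floor (-1.91), a cartridge block (-2.63) and without the pair in doubt (-2.74). It ran from -3.34 to -2.43 leaving out 1 lung, past the threshold in 8 of 23, and Clec7a's from -1.41 to -1.01. Genes called for it were 0 to 144 against 12. Day 2 against day 1 in dust lungs was -1.53 and -0.81 without the pair in doubt, and -2.11 to -1.39 and -1.18 to -0.76 leaving out 1 lung, past the threshold in 20 and 15 of 23. Same-numbered lungs of a day did not deviate together (median r -0.0102 over 65 pairs, 0.00237 for other numbers), so the numbers are not taken as pairs; with the replicate block Clec5a was 2.64 (adjusted p = 0.00118) and Clec7a 1.66 (0.000506), and Fat-1 dust against saline gave 160 genes.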
